A study of Mus musculus with 53 samples.

Results

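The comparison described here is that of ethanol-dependent with non-dependent mice in the central nucleus of the amygdala (CeA) after microglia had been depleted with PLX5622. Its 8 libraries were chosen by region, chow and drinking history in the labels, 4 dependent (mice 6, 7, 8 and 29) and 4 non-dependent (mice 13, 23, 46 and 47), of 53 libraries in all. The other libraries come from the CeA of 11 mice on control chow and from the medial prefrontal cortex (mPFC) of mice on either chow. All 8 mice were C57BL6/J at postnatal day 119 and ate chow with PLX5622 at 1200 mg/kg over the 28 days that preceded ethanol. Chronic intermittent exposure was then combined with a choice of bottles, ethanol being offered at 15%, over 4 weeks, and brains were taken 24 h after the last exposure. The labels give this treatment for both groups and call the mice "Dependent" or "Non-Dependent"; they do not say by which exposure the groups differed. Punches of the CeA were taken from frozen brain cut at 300 µm, and each library holds RNA from the punched tissue of 1 mouse, so a value is a mean over all cell types in the punch.

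The CeA is an output nucleus of the amygdala built mostly of GABA neurons, which are told apart by peptides and kinases such as somatostatin, enkephalin and protein kinase C delta. It is known for its part in anxiety-like behaviour and in the raised drinking of withdrawal, with corticotropin-releasing factor and opioid peptides among its signals. Microglia, the resident macrophages of the brain, need the receptor CSF1R to survive, and PLX5622 blocks that receptor. Immediate early genes such as Fos, Arc and Nr4a1 are transcribed within minutes of neuronal firing or of growth factor and cAMP signals, and are widely used as marks of recent activity.

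The 8 libraries held 1062443 to 1605928 counts in genes, with 16674 to 18077 genes detected. Depletion was seen in both groups: Csf1r had 0 to 3.73 counts per 1e6 (CPM) in the dependent and 1.3 to 1.46 in the non-dependent libraries, against 37.9 to 60.6 in the 11 control-chow CeA libraries. Tmem119, a microglial surface marker, had 0 or 1 count in each of the 8 libraries. Summed over the 34 homeostatic microglia genes in the table, levels were 75.1 to 95.2 CPM in dependent and 58.7 to 100.3 in non-dependent libraries, against 501 to 799 on control chow. Among markers of the labelled tissue, Prkcd, the gene of protein kinase C delta, had 10.4 to 19.3 CPM over the 8 libraries, Penk, the enkephalin precursor, 129 to 554, and Gad2, a GABA-synthesising enzyme, 248 to 465. The excitatory neuron gene Slc17a7 was also present, at 245 to 363 CPM. By median it was no lower in CeA than in mPFC libraries, at 304 against 271 CPM. Prkcd (12.2 against 5.09), Penk (397 against 60.0) and Gad2 (394 against 198) were higher in the CeA. How much tissue from beside the CeA the punches held was not measured. Synthetic spike-in RNA was found in the dependent libraries 6, 7 and 8, at 22511, 12968 and 22069 counts or 1.38%, 1.21% and 1.80% of the counts in genes and spike-ins together. Dependent library 29 held 151 spike-in counts and the non-dependent libraries at most 316.

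Transcripts of Fos and Rsrp1 were called higher in dependent than in non-dependent mice, and no other gene passed the threshold. Neither call held in all fits, and spike-in RNA went largely with the dependent group, as given below. Fos encodes the c-Fos subunit of the transcription factor AP-1. Its level was 45.4, 44.4, 39.8 and 21.5 CPM in dependent libraries 6, 7, 8 and 29, and 21.2, 17.5, 15.9 and 13.5 CPM in non-dependent libraries 13, 23, 46 and 47. Libraries 6, 7 and 8 were well above the non-dependent range, while library 29 lay only just above its upper end, so the groups did not overlap by a narrow margin. Fos (chromosome 12, 85473890 to 85477273, GRCm38, plus strand) was 37.8 ± 11.2 CPM (SD, n = 4) in dependent and 17.1 ± 3.25 CPM (n = 4) in non-dependent mice, a log2 fold change of 1.14 ± 0.21 (SE), or 2.21-fold (edgeR quasi-likelihood test with Benjamini-Hochberg adjustment, adjusted p = 0.0443). These values rest on 20 to 73 Fos counts per library.

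Rsrp1 encodes a protein rich in arginine and serine. Its level was 259, 256, 240 and 212 CPM in dependent libraries 6, 7, 8 and 29, and 186, 186, 174 and 120 CPM in non-dependent libraries 13, 23, 46 and 47. Every dependent library was above every non-dependent one, with the order of the dependent libraries the same as for Fos. Rsrp1 (chromosome 4, 134923592 to 134927671, GRCm38, plus strand) was 242 ± 21.4 CPM (SD, n = 4) against 166 ± 31.4 (n = 4), a log2 fold change of 0.54 ± 0.10, or 1.45-fold (edgeR adjusted p = 0.0443). In all, 2 of 11721 genes tested were called, 0.0171%, both higher in dependent mice. No gene was called lower by edgeR, 697 genes or 5.95% had an unadjusted p under 0.05 (343 higher, 2.93% of those tested, and 354 lower, 3.02%), and DESeq2 called 0 genes in either direction with 511 at an unadjusted p under 0.05. The median log2 fold change over all genes was 0.00.

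**Figure D1:**
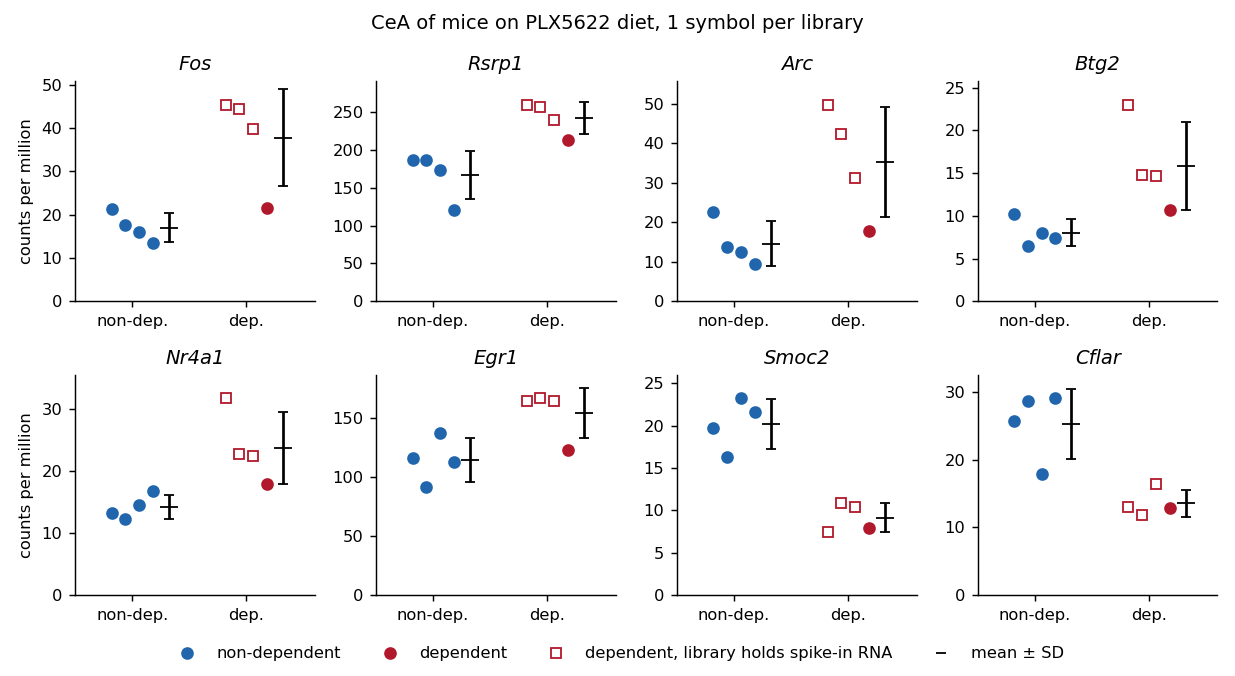
CPM (vertical axis, from 0) of 8 genes in the CeA libraries of mice on PLX5622, 4 non-dependent (blue) and 4 dependent (red), with the mean ± SD beside each group; open squares are the dependent libraries that hold spike-in RNA. Fos runs from 21.5 to 45.4 in dependent and from 13.5 to 21.2 in non-dependent libraries, with library 29 the lowest dependent one, and Smoc2 and Cflar lie lower in all dependent libraries.

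Both calls rest on small margins. With DESeq2 both genes had an adjusted p of 0.0873, and leaving out 1 CeA library ended the call of Fos in 12 and that of Rsrp1 in 14 of 19 fits, with log2 fold changes of 1.01 to 1.35 for Fos and of 0.41 to 0.60 for Rsrp1. Both calls were lost without dependent library 6, 7 or 8 or non-dependent library 23, 46 or 47, and without control-chow library 1, 2, 3, 9, 11 or 15, which are outside the comparison but share its estimate of spread (edgeR adjusted p of 0.0539 to 0.0832 without these). Rsrp1 alone was lost without control-chow library 16 or 17. Spike-in RNA moved with the groups. With a term for its presence, which the control-chow dependent libraries with and without it help to estimate, Fos was at 0.82 ± 0.26 (edgeR adjusted p = 0.669) and Rsrp1 at 0.51 ± 0.13 (adjusted p = 0.384). With all 6 CeA libraries that hold it left out, 3 of them on control chow, only library 29 was left as dependent, assumed to vary like the rest, with Fos at 0.34 ± 0.34 and Rsrp1 at 0.35 ± 0.18 (edgeR adjusted p = 0.980 and 0.971). Over all settings tried the adjusted p ran from 6e-05 to 0.980 for Fos and from 0.000102 to 0.971 for Rsrp1.

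Many immediate early genes stood higher in the dependent mice, most of whose CeA libraries hold spike-in RNA. The members were measured in the same mice and can vary together, so they do not count as replicates. Of 50 on the list 40 were tested, and 13 of these were higher at an unadjusted p under 0.05, 32.5% against 2.93% of all genes, while 1 was lower, 2.50% against 3.02%. Only Fos passed the adjusted threshold, the list's median log2 fold change was 0.20 against 0.00 over all genes, and 34 of the 40 were above 0. Groups did not overlap for 7 members that were higher and 1 that was lower, whereas 1.86% and 1.88% of all genes tested did not overlap in these directions.

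Arc, which encodes a postsynaptic protein that governs AMPA receptor uptake, was at 49.8, 42.5, 31.2 and 17.9 CPM in dependent libraries 6, 7, 8 and 29 and at 22.7, 13.6, 12.6 and 9.44 in non-dependent libraries 13, 23, 46 and 47. Library 29 fell within the non-dependent range, so the groups overlapped, with a log2 difference of 1.29 ± 0.36 (unadjusted p = 0.00204, edgeR adjusted p = 0.615). Btg2, an antiproliferative gene of the immediate early class, was at 23.0, 14.8, 14.7 and 10.7 CPM in the dependent and at 10.2, 6.50, 7.96 and 7.42 in the non-dependent libraries in the same order. Nr4a1, a nuclear receptor without a known natural ligand, was at 31.7, 22.7, 22.5 and 17.9 against 13.2, 12.3, 14.6 and 16.9 CPM. For both genes every dependent library was above every non-dependent one, at log2 differences of 1.01 ± 0.29 and 0.75 ± 0.22 (edgeR adjusted p = 0.615 for each).

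Further members with an unadjusted p under 0.05 were the AP-1 partners Junb at 0.73 ± 0.27 and Fosl2 at 0.47 ± 0.22 and the zinc finger factor Egr1 at 0.43 ± 0.18. The phosphatase genes Dusp5, Dusp1 and Dusp6, which limit MAP kinase signalling, were at 0.90, 0.57 and 0.45, the last with a sign that turned when spike-in RNA was accounted for (-0.03). Tiparp, a mono-ADP-ribosyltransferase, was at 0.59 ± 0.18, the stress gene Gadd45b at 0.77 ± 0.32 and the clock gene Per1 at 0.41 ± 0.15. Klf6, a Krüppel-like factor, was the member that lay lower, at 51.5 to 59.7 CPM in dependent and 61.5 to 98.8 in non-dependent libraries (-0.41 ± 0.13, edgeR adjusted p = 0.615). Among members with a larger p, Npas4 was at 0.30 ± 0.42, Fosb at 0.18 ± 0.26 and Bdnf at -0.15 ± 0.24.

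Among the 13 higher members, library 29 was the lowest dependent library for 11, whereas it was the lowest for 24.2% of all genes tested. The median log2 difference of the 13 was 0.73 as reported, 0.61 with the spike-in term, with 12 above 0, and 0.31 with the 6 spiked CeA libraries left out, with 11 above 0 and Dusp1 and Dusp6 at -0.01 and -0.17. The mPFC libraries taken as those of the same 8 mice, by number, chow and history in the labels, held 0 to 41 spike-in counts. In them all 13 were above 0 with a median of 0.42, against 0.00 over all genes tested there. The 13 were picked by their CeA values in the same mice, so this is not a result from other mice. The part of spike-in RNA in the CeA values was not tested with these libraries.

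**Figure D2:**
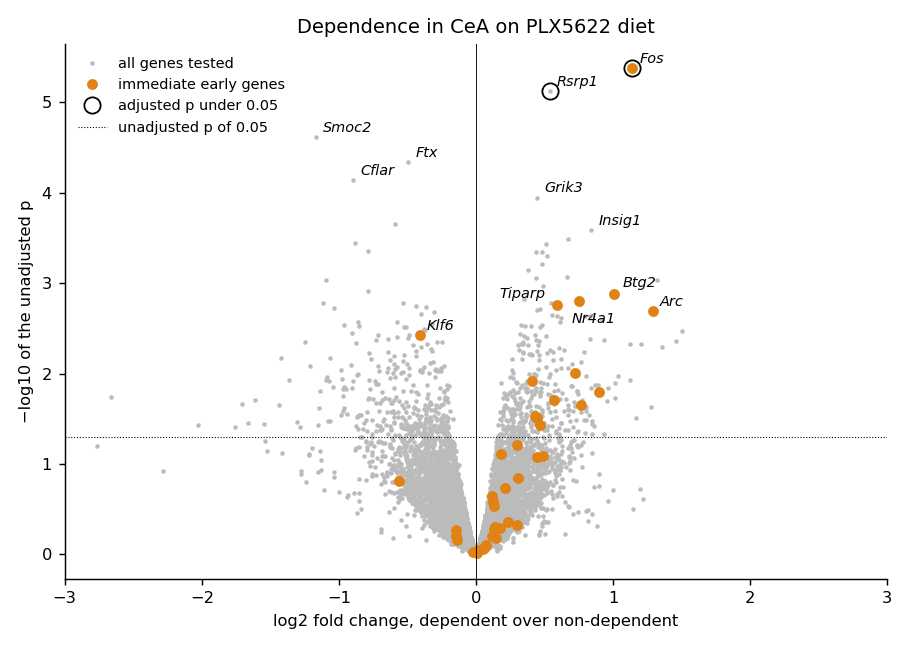
Log2 fold change, dependent over non-dependent, against −log10 of the unadjusted p for the genes tested in the CeA on PLX5622 (grey), with the immediate early genes in orange and the 2 genes past the adjusted threshold ringed; 3 genes beyond a log2 fold change of 3 in size are not drawn. Fos at 1.14 and Rsrp1 at 0.54 have the smallest p, and 13 immediate early genes lie above the dotted line to the right against 1 to the left.

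Sequences of the promoters are shown for the immediate early genes because many are known to respond to cAMP through the factor CREB, whose binding letters are TGACGTCA, or its core TGACG read on either strand. RefSeq promoters (GRCm38.p6, 250 bases before to 50 after the start) were matched for 11 of the 13 higher members, and 7 of them held at least 1 core site, 63.6%, against 20.8% of 32851 promoters. The first share counts genes, Per1 with 2 listed promoters, and the second counts single promoters. No share is given for immediate early genes outside the 13. Many genes of this class are known to respond through CREB, so nothing about these mice is read from the contrast of shares. Core sites are also counted inside the full site, which was in 2, Btg2 and Dusp1, and in 1.79% of all promoters. The following windows run 5′ to 3′ on the gene's strand, with the full site in capitals where there is one and otherwise the core site nearest to the start.
Fos, chr12:85473814-85473838, plus strand: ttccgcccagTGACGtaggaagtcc
Btg2, chr1:134079304-134079331, minus strand: ttcccaataaTGACGTCAgtgagcgatg
Dusp1, chr17:26508598-26508625, minus strand: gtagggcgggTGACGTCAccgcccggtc
Nr4a1, chr15:101266796-101266820, plus strand: cctctccatgCGTCAcggagcgctt
Junb, chr8:84978840-84978864, minus strand: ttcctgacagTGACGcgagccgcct
Dusp5, chr19:53529080-53529104, plus strand: tgggcactcaCGTCAcaggacgcgc
Per1, second listed promoter, chr11:69100010-69100034, plus strand: gctcagcggcTGACGtcggtttccc
Rsrp1, the other called gene, chr4:134923596-134923620, plus strand: ttttcgatgcTGACGtcgccactaa
In Nr4a1 and Dusp5 the capitals read CGTCA, the core site on the opposite strand. No core site was found in these windows of Fosl2, Dusp6, Gadd45b and Tiparp. A match of letters is a description and does not show that a factor was bound in these mice.

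The mPFC of the same mice gave a separate measurement of the same contrast. In mPFC libraries 6, 7, 8 and 29 Fos was at 52.1, 48.7, 22.3 and 35.3 CPM, against 26.3, 24.0, 24.1 and 15.7 in non-dependent libraries 13, 23, 46 and 47. Here library 8 lay within the non-dependent range, and libraries 6, 7 and 29 above it. The log2 difference of Fos was 0.80 ± 0.25 in these 8 libraries (unadjusted p = 0.00855, edgeR adjusted p = 0.576) and 0.53 ± 0.21 over all 18 mPFC libraries on PLX5622 (unadjusted p = 0.0169, adjusted p = 0.728). Of 39 immediate early genes tested in the mPFC of the 8 mice, 13 were higher and 1 lower at an unadjusted p under 0.05, with a median of 0.28, against 3.75% higher among 11647 genes and a median of 0.00; 1 gene, 0.00859%, was called there. Nr4a1 was at 68.7, 61.2, 49.2 and 39.3 CPM in dependent mice 6, 7, 8 and 29 and at 38.2, 35.1, 30.1 and 40.9 in mice 13, 23, 46 and 47 (0.59 ± 0.14), Junb was at 0.84 ± 0.19 and Egr1 at 0.32 ± 0.07, each with an edgeR adjusted p of 0.268. Arc was at 0.50 ± 0.38 there, with overlapping groups.

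**Figure D3:**
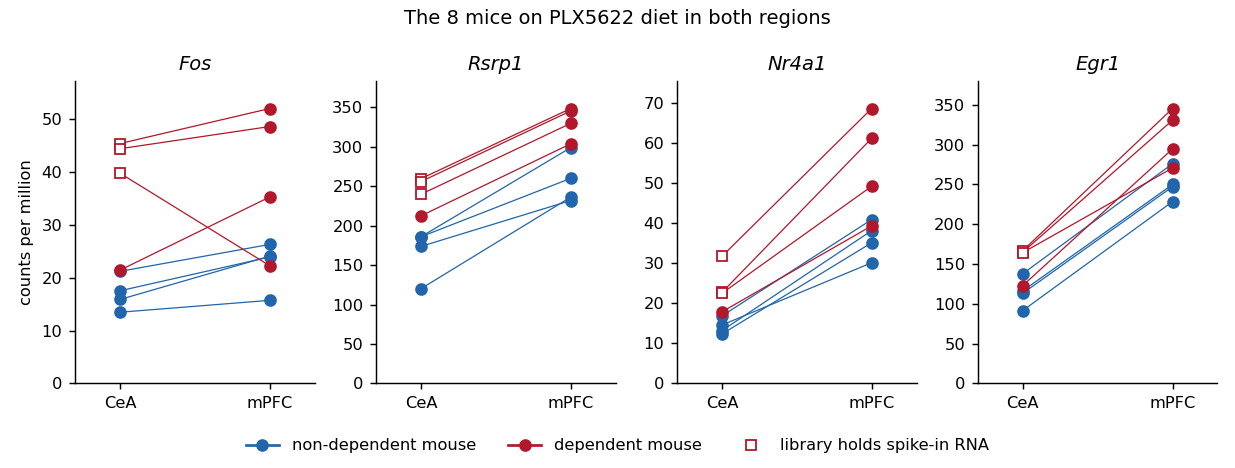
CPM (vertical axis, from 0) of Fos, Rsrp1, Nr4a1 and Egr1 in the CeA and mPFC of the 8 mice on PLX5622, 1 line per mouse, red for dependent and blue for non-dependent; open squares are libraries holding spike-in RNA. For Rsrp1 all dependent mice lie above all non-dependent mice in both regions, from 304 to 348 against 232 to 299 in the mPFC, whereas for Fos the mPFC value of mouse 8, at 22.3, lies among the non-dependent mice.

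Rsrp1 stood apart from the non-dependent mice in every set of CeA libraries. On control chow it was at 215, 234, 220, 220 and 207 CPM in dependent mice 1, 2, 3, 9 and 11, and at 156 to 202 CPM with a median of 194 in 6 non-dependent mice, again with no overlap (0.25 ± 0.09, unadjusted p = 0.00711). Libraries 1, 9 and 11 hold spike-in RNA and libraries 2 and 3 do not, and the values of both kinds overlap. In the mPFC of the 8 mice Rsrp1 was at 348, 345, 330 and 304 CPM in dependent mice 6, 7, 8 and 29 and at 299, 260, 232 and 236 in non-dependent mice 13, 23, 46 and 47 (0.36 ± 0.07, unadjusted p = 1.1e-05, edgeR adjusted p = 0.0638). Over all 9 against 9 mPFC libraries on PLX5622 the groups overlapped, at 290 to 348 against 232 to 333 CPM (0.14 ± 0.06, adjusted p = 0.728).

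Genes higher in dependent mice without overlap in the CeA on both chows numbered 3, or 0.0256% of those tested, Rsrp1, Ntrk2 and Ripor2; on control chow alone 0.350% were higher without overlap. The same 3 were also higher without overlap in the mPFC of the 8 mice, as 1.76% of these genes were there. Ntrk2, which encodes TrkB, the receptor of brain-derived neurotrophic factor, was at 716, 711, 705 and 689 CPM in dependent libraries 6, 7, 8 and 29 and at 628, 605, 619 and 635 in non-dependent libraries 13, 23, 46 and 47. On PLX5622 the gap between the groups was wider than the range within either, at a log2 difference of 0.18 ± 0.07 (unadjusted p = 0.0126, edgeR adjusted p = 0.737). On control chow the groups were only just apart, at 607.9 to 689.2 in dependent against 563.6 to 607.0 CPM in non-dependent libraries (0.19 ± 0.06). Ripor2, an inhibitor of the small GTPase RhoA, was at 99.6, 126, 111.6 and 97.3 against 89.3, 80.6, 85.5 and 75.6 CPM in the same order (0.38 ± 0.10, edgeR adjusted p = 0.488), and at 0.26 ± 0.09 on control chow. Ripor2 was named after its values were seen, and Ntrk2 and Ripor2 overlap genes on the opposite strand, whose reads cannot be told apart from their own where counting ignored strand.

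The genes next in order of p were lower in dependent mice. Smoc2, which encodes a secreted calcium-binding matrix protein, was at 7.47, 10.9, 10.4 and 7.87 CPM in dependent libraries 6, 7, 8 and 29 and at 19.8, 16.2, 23.2 and 21.6 in non-dependent libraries 13, 23, 46 and 47. The groups were well separated and library 29 lay with the other dependent libraries, at a log2 difference of -1.17 ± 0.24 (edgeR adjusted p = 0.0949), which was -1.35 with the 6 spiked CeA libraries left out and passed the threshold where no filter on low counts was set (adjusted p = 0.0254) and without control-chow non-dependent library 19 (adjusted p = 0.0277). On control chow Smoc2 did not separate the groups, with 13.6 to 14.7 CPM in dependent against 6.62 to 19.0 in non-dependent libraries.

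Ftx, a long noncoding RNA of the X-inactivation centre, was at 62.3 to 85.9 against 104.8 to 117.1 CPM (-0.49 ± 0.11, edgeR adjusted p = 0.136). Cflar, which encodes the caspase-8 inhibitor c-FLIP, was at 11.9 to 16.4 against 17.9 to 29.0 CPM (-0.90 ± 0.20, adjusted p = 0.171). Neither pair of groups overlapped. Further down, without a call, came Tsga10 at -0.59, the noncoding gene Gm16083 at -0.88, the transcription factor gene Tfcp2 at -0.79, Aebp1 at -1.09, the neogenin-like receptor gene Prtg at -0.79, the deoxyribose-phosphate aldolase gene Dera at -1.12 and the cilium gene Tbc1d32 at -0.53, with adjusted p from 0.371 to 0.615. Smoc2, Ftx, Tsga10, Gm16083, Prtg and Tbc1d32 overlap genes on the opposite strand, as Junb, Tiparp, Dusp1, Dusp5 and Pcbp4 do among genes that were higher.

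Genes higher in dependent mice after Fos and Rsrp1 included Grik3, the kainate receptor subunit GluK3, at 110 to 127 against 76.9 to 89.7 CPM with no overlap (0.44 ± 0.10, edgeR adjusted p = 0.221). Insig1, which holds the sterol sensor SCAP in the endoplasmic reticulum, was at 25.0 to 35.5 against 13.6 to 19.0 CPM (0.84 ± 0.21). The glutathione-cycle gene Ggct was at 0.67, the sulfiredoxin gene Srxn1 at 0.48, the proteasome subunit gene Psmd6 at 0.52, the RNA-binding protein gene Pcbp4 at 0.51, Serp2 at 0.44 and Slc2a13, a myo-inositol transporter, at 0.48. In all of these the lowest dependent library was above the highest non-dependent one, and none passed the threshold, with adjusted p from 0.379 to 0.445 for these 7 from Insig1 on.

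Whether the dependence effect differed from that with microglia present was asked with the interaction of chow and dependence, fitted over 19 CeA libraries. No gene was called by edgeR (0 of 11721, 0.00%, smallest adjusted p = 0.478), 535 or 4.56% had an unadjusted p under 0.05, and DESeq2 called 0 with 360 under that p. On control chow 1 gene was called, 0.00853%. The dependence effect on Fos was 1.14 on PLX5622 and 0.44 on control chow, where the 5 dependent libraries had 22.1 to 28.2 CPM and the 6 non-dependent ones 11.0 to 26.8. The difference of these effects was 0.70 ± 0.29 (unadjusted p = 0.0191, edgeR adjusted p = 0.993), so Fos was not shown to respond differently. Arc was at -0.02 on control chow, a difference of 1.31 ± 0.47 (edgeR unadjusted p = 0.0121). Of the 40 immediate early genes tested 5 had an unadjusted p under 0.05 for the difference, where 4.56% of all genes had. Among the 13 higher members, Arc included, 4 did. These 13 were picked by their effect on PLX5622, which is part of the difference, so nothing is read from that count. On control chow 12 of the 13 were above 0. Ehmt1, a histone H3 lysine 9 methyltransferase gene, had the smallest p, at -0.30 on PLX5622 and 0.35 on control chow, a difference of -0.65 ± 0.15 (adjusted p = 0.478), and Smoc2 differed by -1.23 ± 0.32 (adjusted p = 0.747).

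**Figure D4:**
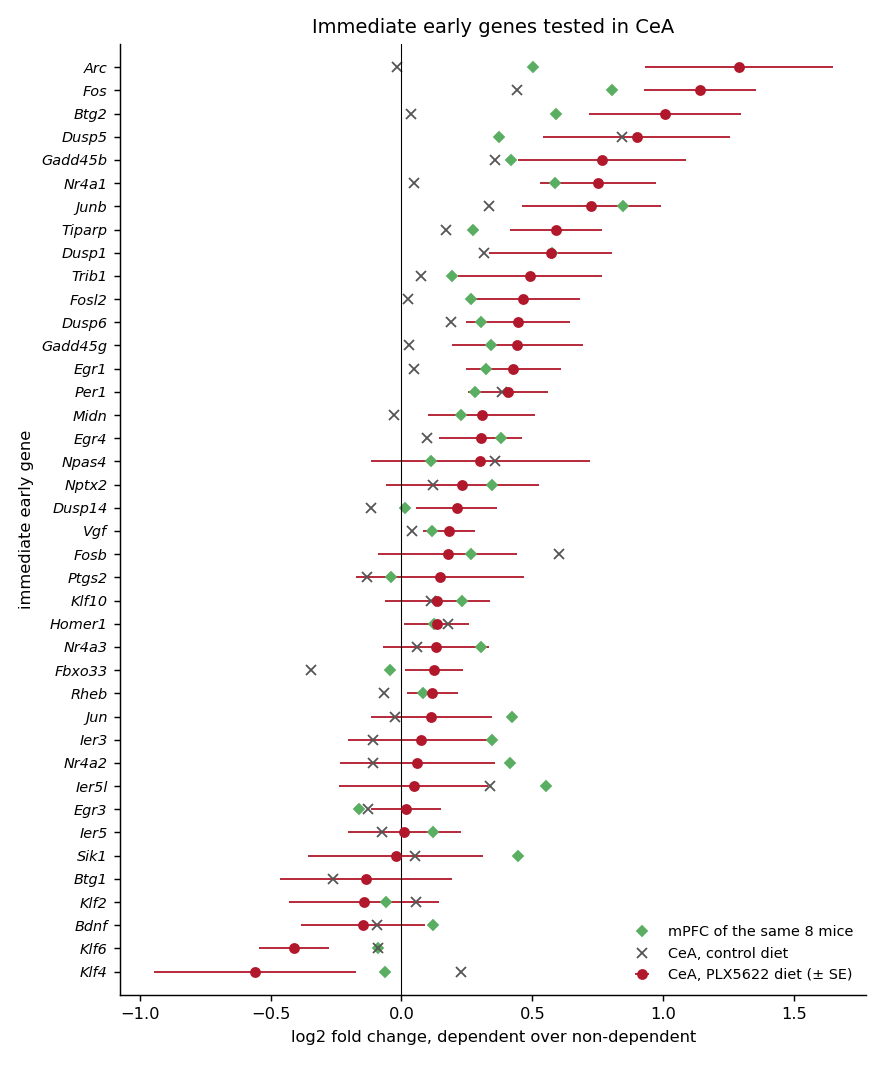
Log2 fold change, dependent over non-dependent, of the 40 immediate early genes tested in the CeA on PLX5622 (red, ± SE), beside the same contrast in the mPFC of the same 8 mice (green) and in the CeA of other mice on control chow (crosses). Arc at 1.29 and Fos at 1.14 lead in the CeA on PLX5622, where the median of the list is 0.20, against 0.05 on control chow.

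Against the mPFC on PLX5622, where edgeR called 0 of 12331 genes with 728 at an unadjusted p under 0.05, 3.13% being higher at that p, and DESeq2 0 with 717, the difference between regions called 0 of 13035 genes, 602 or 4.62% having an unadjusted p under 0.05, and DESeq2 0 with 558. Region and sequencing instrument cannot be told apart, though each region's contrast was made within it. The fit over both regions had no term for the mouse, so libraries of the same mouse counted as independent in the p-values that follow. For Fos the effect was 0.61 ± 0.41 larger in the CeA (unadjusted p = 0.145) and for Rsrp1 0.40 ± 0.12 (unadjusted p = 0.00136, edgeR adjusted p = 0.899). Htr2c, the serotonin 2C receptor gene, was at -0.56 ± 0.22 in the CeA and 0.51 ± 0.23 in the mPFC, a difference of -1.07 ± 0.32 (unadjusted p = 0.00190, adjusted p = 0.899). In the CeA it was at 188 to 301 CPM in dependent and 283 to 419 in non-dependent libraries.

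Genes of the stress and peptide systems that the CeA is known for showed no call. Crh, which encodes corticotropin-releasing factor, was at 3.95 to 9.52 CPM in dependent and 2.6 to 11.0 in non-dependent libraries (0.21 ± 0.38), and its receptor gene Crhr1 was at -0.13 ± 0.26, signs that turned for both when 1 library was left out. On control chow Crh was at 0.97 ± 0.32 (unadjusted p = 0.00399), a difference from PLX5622 of -0.75 ± 0.50 (unadjusted p = 0.137). Of 7 opioid genes tested all 7 were above 0, with a median of 0.27 and 1 at an unadjusted p under 0.05, the delta receptor gene Oprd1 at 0.55 ± 0.25. The precursor genes Penk and Pdyn, of enkephalin and dynorphin, had overlapping groups, at 369 to 554 against 129 to 407 CPM (0.61 ± 0.44) and 49.4 to 104.5 against 13.6 to 66.6 CPM (0.73 ± 0.49). Among 26 other peptide and receptor genes 5 were higher at that p, 19.2% against 2.93% of all genes, and none lower, with a median of 0.06. They included the granin genes Chga at 0.37 ± 0.12 and Scg2 at 0.33 ± 0.13, whose products pack peptides into dense-core vesicles, and the somatostatin gene Sst at 0.20 ± 0.09, with 572 to 638 against 492 to 588 CPM. Chga and Scg2 were at 0.24 and 0.27 on control chow and at 0.23 and 0.43 in all mPFC libraries on PLX5622.

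Of 22 genes of CeA neuron identity 4 were higher and 1 lower at an unadjusted p under 0.05, with a median of 0.23. These were 18.2% and 4.55%, against 2.93% and 3.02% of all genes. Wfs1, a marker of CeA neurons that encodes an endoplasmic reticulum protein, was at 141.9 to 168 against 111.3 to 135.3 CPM with no overlap (0.33 ± 0.10, edgeR adjusted p = 0.615). The serotonin 2A receptor gene Htr2a was at 37.9 to 46.0 against 22.1 to 42.4 CPM (0.46 ± 0.16). Summed over 24 members the list was at 2671, 2312, 2427 and 2470 CPM in dependent libraries 6, 7, 8 and 29 and at 2355, 1654, 2192 and 1938 in non-dependent libraries 13, 23, 46 and 47. These sums overlapped, since non-dependent library 13 lay above dependent library 7.

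Marker genes of tissue next to the CeA were examined beside these results, and in bulk tissue fewer cells of a type and less RNA per cell cannot be told apart. All 22 striatal neuron genes tested were above 0, with a median of 0.47 and none at an unadjusted p under 0.05, among them the dopamine D1 receptor gene Drd1 at 32.6 to 56.6 against 16.2 to 35.1 CPM (0.78 ± 0.45). Their summed level was 2927 to 3640 CPM in dependent and 2134 to 2961 in non-dependent libraries. Of 17 genes of meninges and choroid plexus 7 were lower at an unadjusted p under 0.05, 41.2% against 3.02% of all genes, and none higher, with a median of -1.04. They included the collagen gene Col3a1 at 0.62 to 3.58 against 1.35 to 20.5 CPM, the matrix Gla protein gene Mgp at 11.2 to 16.5 against 19.2 to 23.4 CPM, and Aebp1 at 6.91 to 7.87 against 10.1 to 24.0 CPM. The 22 members summed to 967 to 3020 CPM in dependent and 2275 to 6197 in non-dependent libraries, most of it Ttr, the transthyretin gene of choroid plexus, at 512 to 2040 against 1420 to 4240 CPM. On control chow the median of the list was -0.46 and 4 of the 17 were lower at that p, where 278 of all 11721 genes were. The part of these tissues in the results for Fos, Rsrp1 and Smoc2 was not tested.

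Of 22 vessel wall genes tested 2 were lower at an unadjusted p under 0.05, 9.09% against 3.02% of all genes, with a median of -0.03. These were Acta2 and Myl9 of smooth muscle, at -1.37 ± 0.50 and -0.85 ± 0.36. Oligodendrocyte genes had a median of 0.21 over 23, with 2 higher at an unadjusted p under 0.05, 8.7% against 2.93% of all genes. The 2 were the transcription factor gene Nkx6-2 at 1.02 ± 0.41 and the matrix link protein gene Hapln2 at 0.94 ± 0.46. Their groups overlapped, and they rest on only 3 to 13 and 1 to 11 counts per library. Astrocyte genes had a median of 0.10 over 22, with 3 higher at an unadjusted p under 0.05, 13.6% against 2.93% of all genes. The 3 were the acyl-CoA synthetase gene Acsl3 at 0.26, the neurotensin receptor gene Ntsr2 at 0.32 and the calcium-binding protein gene S100b at 0.20. Homeostatic microglia genes were low in both groups against control chow, as given above. Those that entered the fit did so with control-chow libraries counted in the filter, so nothing is read from their test. No border macrophage gene had enough counts, and Cd163 had 0 counts in all 8 libraries. Cortical excitatory neuron genes had a median of -0.01 over 21, with Cux2 at 0.39 ± 0.13.

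**Figure D5:**
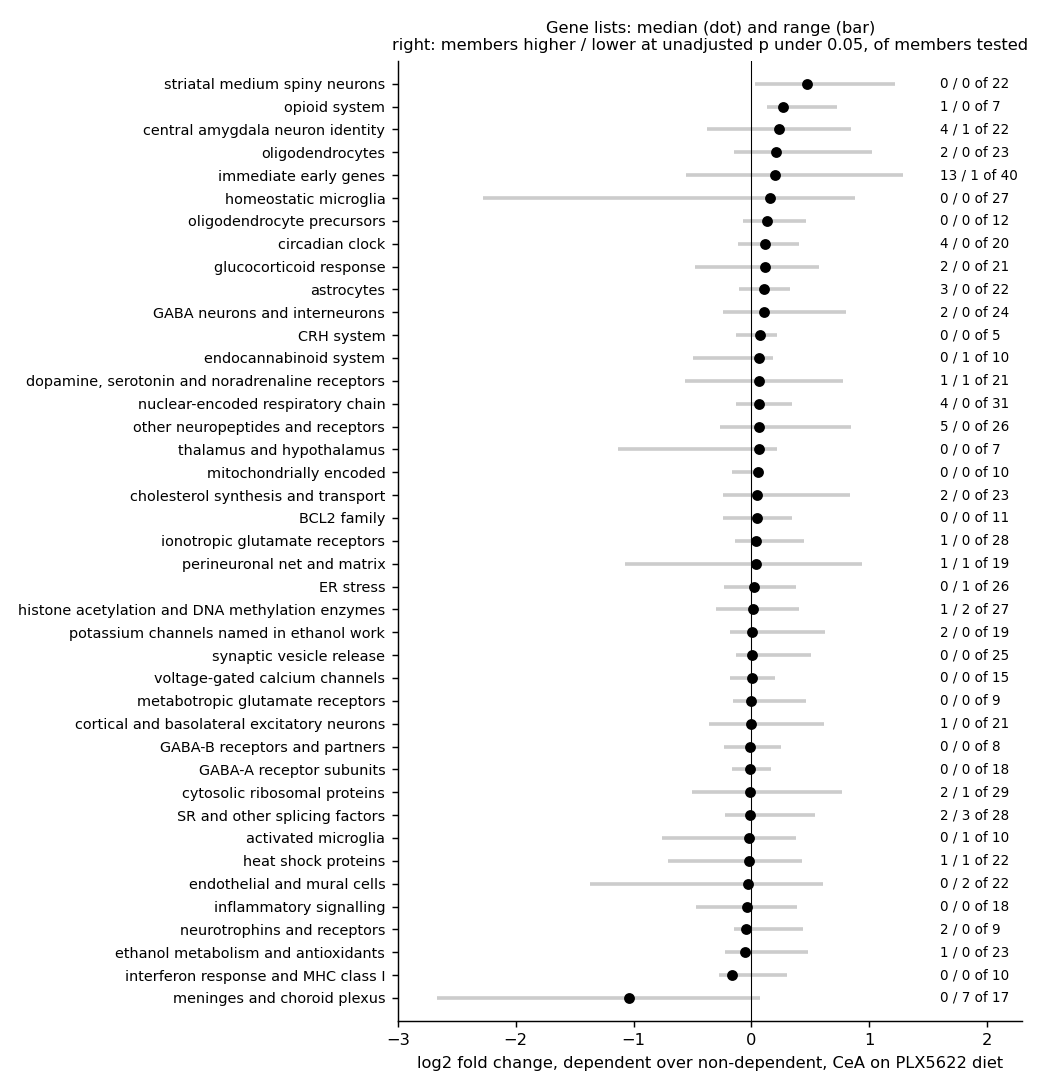
Median (dot) and range (bar) of the log2 fold change, dependent over non-dependent, in the CeA on PLX5622 for each gene list with at least 5 members tested; the numbers at the right are members higher and lower at an unadjusted p under 0.05, of those tested. Meninges and choroid plexus have the lowest median at -1.04 and striatal neurons the highest at 0.47, while immediate early genes have the most members past that p, 13 higher and 1 lower of 40.

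Receptors and channels studied in ethanol work had medians close to that of all genes. GABA-A receptor subunits had a median of -0.01 over 18 with none at an unadjusted p under 0.05, the smallest p being that of Gabra3 at -0.17 ± 0.11. Ionotropic glutamate receptors had a median of 0.04 over 28, with Grik3 the only member at that p and Grin1, the obligate NMDA receptor subunit, at 0.12 ± 0.09. Calcium channel genes had a median of 0.01 over 15, with Cacna1c at -0.18 ± 0.09. Of 19 potassium and related channel genes 2 were higher at that p, 10.5% against 2.93% of all genes. Hcn2, a channel opened by hyperpolarisation, was at 25.7 to 33.0 against 13.0 to 22.9 CPM with no overlap (0.62 ± 0.19, edgeR adjusted p = 0.615), and Kcnmb4, the beta 4 subunit of the BK channel, a known ethanol target, was at 0.37 ± 0.15. In the endocannabinoid list the receptor gene Cnr1 was at 0.18 ± 0.09 and Napepld, of anandamide synthesis, at -0.49 ± 0.22, with a median of 0.07 over 10. Of 9 neurotrophin genes Ntrk2 and Gfra1, the receptor of glial cell line-derived neurotrophic factor, at 0.44 ± 0.16, were higher at that p, with a median of -0.04.

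Among nuclear and stress genes, 20 clock genes had a median of 0.12 with 4 higher at an unadjusted p under 0.05 and none lower. The 4, with Per1, Nr1d2 at 0.28 ± 0.12 and Hlf at 0.26 ± 0.12 among them, were 20.0% of the list. Of all genes 2.93% were higher and 3.02% lower at that p. Glucocorticoid response genes had a median of 0.11 over 21 with 2 higher at that p, against a median of 0.32 and 5 higher on control chow, where 3.74% of all genes were. Of 27 enzymes of histone acetylation and DNA or histone methylation 1 was higher and 2 lower, the deacetylase genes Hdac5 at 0.40 ± 0.16 and Hdac9 at -0.20 ± 0.10, and Ehmt1. Splicing factors, a list that holds Rsrp1, had a median of -0.02 over 28 with 2 higher and 3 lower. Heat shock genes had a median of -0.02 over 22, with Dnajb5 at 0.43 ± 0.16 and the co-chaperone gene Bag3 at -0.71 ± 0.29, and endoplasmic reticulum stress genes one of 0.02 over 26, with the chaperone gene Calr at -0.23 ± 0.11. Interferon genes had a median of -0.16 over 10 and inflammatory signalling genes of -0.04 over 18, none with an unadjusted p under 0.05, and BCL2 family genes of 0.05 over 11 with none, Hrk being at 0.25 ± 0.17.

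As a check of RNA make-up, genes spanning 100 kb or more held 37.8, 37.9, 38.6 and 36.8% of counts in dependent libraries 6, 7, 8 and 29 and 38.6, 38.1, 38.9 and 38.1% in non-dependent libraries 13, 23, 46 and 47. The means were 37.8 ± 0.73% and 38.4 ± 0.39% (SD, n = 4 each), and the groups overlapped (exact two-sided permutation p = 0.171, where the smallest possible is 0.0286).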

How the data were processed

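RNA was measured in 53 libraries, of which 8 form the comparison. The authors deposited raw counts of reads for each Ensembl gene, 1 library per mouse and region. They used R 3.5.1, HTSeq 0.11.0, FastQC 0.11.8, DESeq2 1.10.1 and Bowtie2 2.3.4.3 on GRCm38.p6 (mm10), per the submitters' processing notes; the tools' order and settings, the use of strand and the removal of duplicate reads were not given in the sources used here. Library sizes and tests left out the 92 spike-in entries and reads that named no gene. Reads in genes were 71.6% to 73.4% of all in the CeA libraries. Symbols and coordinates came from a GENCODE annotation of GRCm38.

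All 4 CeA groups, 19 libraries, entered 1 fit in edgeR 4.0.16 (R 4.3.3) with TMM, robust spread and filterByExpr (at least 10 counts, 15 in total), and calls were made where the Benjamini-Hochberg adjusted p over all tested genes was under 0.05. Levels are counts per 1e6 of TMM library size (CPM). The SE divides the log2 fold change by the root of F. The mPFC was fitted alike, and a joint fit of 53 libraries tested regions against each other. The scripts were tested on simulated data. DESeq2 1.42.0, other scalings and filters, a surrogate variable (sva 3.50.0) and fits without single libraries were alternatives.

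Groups and replicate numbers, which were taken as mouse numbers, came from the labels. Number 16 stands on a control-chow CeA library and on a PLX5622 mPFC library, so a number alone did not fix a mouse. That number is not among those of the comparison. The CeA and mPFC came from 1 brain each time, per the labels' protocols, so equal numbers with equal diet and history were taken as the same mouse; the correlation of a mouse's deviations in its 2 regions was 0.01 to 0.09 over 11424 genes. Counts of libraries in 1 group differed beyond sampling noise (chi-square per gene of 1.25 or more). Each p-value of a contrast within 1 region measures the spread between mice, with counting error included. The joint fit had no term for the mouse, so its p-values leave out the pairing of regions.

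The members, the gene lists and the tests were chosen with earlier results of these data known. Genes were named by rule: those called, the 10 smallest p in each direction, and up to 3 members per list; further immediate early genes, Ripor2, Ttr, Gad2 and Slc17a7 were named after values were seen.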

Additional observations from a re-analysis of the deposited data

Results flagged for a closer look

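Spike-in RNA entered gene tests only in alternative fits, by its presence or absence in a library. It was at 22511, 12968 and 22069 counts in dependent libraries 6, 7 and 8, above the highest count of 316 in the other 5 libraries of the comparison.

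A library stood far from the other 3 of its group in 7 of 164 groups checked over the named genes, where chance gives about 1 in 20. In dependent library 29 Egr1 was at 123.04 CPM against 164 to 167 in the other dependent libraries, and Srxn1 at 64.4 against 68.5 to 69.2. In dependent library 8 Ftx was at 62.3 CPM against 82.3 to 85.9, and in dependent library 6 Grin1 was at 282 against 254 to 258. In non-dependent library 46 Tfcp2 was at 33.8 CPM against 24.7 to 25.0 and Rpl11 at 11.9 against 6.50 to 7.42. In non-dependent library 13 Dusp1 was at 16.8 CPM against 13.5 to 13.9.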

How the results depend on the processing

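The count of 2 called genes fell to 0, both in all and for higher genes, with DESeq2, without robust spread (adjusted p of 0.140 for both), with the spike-in term, without the libraries holding spike-in RNA and with 1 surrogate variable (adjusted p of 0.091 for both), and the cause was not tested. Without a filter on low counts 10 genes were called, 6 higher and 4 lower, Fos, Rsrp1, Arc, Slc2a13, Smoc2 and Ftx among them. With only the 2 groups 3 higher genes were called, Fos, Slc2a13 and Kcnab1, with Rsrp1 at an adjusted p of 0.111. Without 1 library each the counts ran from 0 to 4, 0 to 3 higher and 0 to 1 lower, and were 0 in 12 of 19 fits, those without dependent library 6, 7 or 8, non-dependent library 23, 46 or 47, or control-chow library 1, 2, 3, 9, 11 or 15. In the mPFC the count of 0 became 8 without a filter, 4 higher and 4 lower, and 1, the lower splicing factor gene Srsf3, with only the 8 mice, and ran from 0 to 2 without 1 library, 0 to 1 in each direction. The interaction stayed at 0 calls in each alternative run. The difference between regions stayed at 0, also with the mouse as replicate block over the 8 mice (0 of 11866 genes, 613 at an unadjusted p under 0.05). The block was run for this difference only. Of 2345 refits over 81 named genes 2296 kept direction and side of the threshold. Signs turned for Dusp6 with the spike-in term (-0.031), for Dusp1 (-0.012) and Dusp6 (-0.17) without spiked libraries, and in leave-one-out fits for Crh (from -0.057 without non-dependent library 23 to 0.56 without library 13) and Crhr1 (from -0.33 without dependent library 6 to 0.010 without library 29). The difference in counts from long genes was -0.656 percentage points, -0.724 at 50 kb, -0.545 at 200 kb, and -0.926 to -0.333 without 1 library. At 1062443 to 1605928 counts per library the median SE of a log2 fold change was 0.17, and the 2 called genes had SEs of 0.21 and 0.10.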

Other observations

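Genes of energy and protein synthesis, described nowhere above, lay close to the median of all genes with a few members apart. Of 31 nuclear-encoded respiratory chain genes tested 4 were higher at an unadjusted p under 0.05 and none lower, with a median of 0.06. The 4 were 12.9% of the list, against 2.93% of all genes higher at that p and 3.02% lower. Ndufa4 was at 64.1 to 82.0 against 42.9 to 63.0 CPM (0.34 ± 0.12) and Ndufs1 at 121.2 to 138.8 against 99.5 to 113.7 CPM (0.23 ± 0.09), in both cases with no overlap between groups and with -0.06 and -0.02 on control chow. The difference between chows had an unadjusted p of 0.0116 for Ndufa4 and 0.0479 for Ndufs1 (edgeR adjusted p = 0.993 for each). Mitochondrially encoded genes had a median of 0.05 over 10 with none at that p. Of 29 cytosolic ribosomal protein genes 2 were higher and 1 lower, among them Rplp1 at 166 to 190 against 146.9 to 161 CPM with no overlap (0.20 ± 0.08), and Rpl11, which has many processed copies in the genome, at 10.9 to 18 against 6.50 to 11.9 CPM.

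Among matrix genes, of which 19 were tested with a median of 0.04, Mmp14, a membrane-bound metalloprotease, was at 2.96 to 4.29 against 5.40 to 10.4 CPM with no overlap (-1.07 ± 0.41, edgeR adjusted p = 0.729). Cd63, a tetraspanin of endosomes and the lowest of 10 activated microglia genes, was at 4.36 to 8.65 against 6.07 to 16.9 CPM (-0.76 ± 0.34). Dlx5, a homeobox gene of GABA neuron development, was at 5.93 to 10.0 against 2.70 to 7.32 CPM (0.81 ± 0.36).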
